A study of Mus musculus with 20 samples.

Results

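The circadian clock genes of the mouse liver were examined through 3 histone marks: Arntl (also called Bmal1), Clock, Per1, Per2, Per3, Cry1, Cry2, Nr1d1, Nr1d2 and Dbp, 10 genes in all. Their members here are the consensus intervals, the merged regions that the authors list for each mark, whose midpoint lies in the gene body or within 10 kb of it on mm10. They numbered 61 of 65776 intervals for H3K27ac, 116 of 103014 for H3K4me1 and 71 of 46568 for H3K9ac. The genes were listed by name, not by a measured value. The livers came from 9-week-old male C57BL/6 mice of 4 genotypes: wild type (WT), Cpt2 L-/- (a knockout of Cpt2 in the liver, written Cpt2 KO), Ppara -/- (Ppara KO) and mice with both deletions (DKO). All of them, WT included, had been fasted for 24 hours up to 3 pm and were kept under 14 hours of light and 10 hours of dark on standard chow. The labels give no Cre driver for the liver deletion, no collection time for a single liver and no fed or other time point, so values describe 1 phase of the day. H3K27ac and H3K4me1 were measured in 2 livers of each genotype, and H3K9ac in 1 WT and 1 Cpt2 KO liver.

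The core clock is a feedback loop. The proteins of Clock and Arntl pair and drive transcription through a short DNA motif called the E-box, among others of the Per, Cry, Nr1d1, Nr1d2 and Dbp genes. The Per and Cry proteins then repress that pair, the products of Nr1d1 and Nr1d2 (REV-ERB alpha and beta) repress Arntl through a motif called the RORE, and Dbp activates output genes through the D-box. In the liver this loop sets daily rhythms of metabolic genes and responds to feeding and fasting. Ppara encodes a nuclear receptor for fatty acids that binds motifs of the DR1 type, and Cpt2 an enzyme of the mitochondrial carnitine shuttle that long-chain fatty acids pass on their way to oxidation. H3K27ac and H3K9ac mark active promoters and enhancers, and H3K4me1 marks enhancers.

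The promoters shown next are the ones the results turn on: Clock, whose start interval gave the only test passed by a clock interval, Arntl, whose start interval was called in some livers only, and 3 repressor genes whose window holds a clock motif. Each runs 5′ to 3′ from 250 bases before to 50 bases after a RefSeq start (GRCm38.p6, the assembly behind mm10), with motif matches in capitals. The windows are chr7:113207261-113207560 on the plus strand for Arntl, chr5:76304743-76305042 on the minus strand for Clock, chr11:69098699-69098998 on the plus strand for Per1, chr4:151044616-151044915 on the minus strand for Per3 and chr10:85185005-85185304 on the minus strand for Cry1.
Arntl: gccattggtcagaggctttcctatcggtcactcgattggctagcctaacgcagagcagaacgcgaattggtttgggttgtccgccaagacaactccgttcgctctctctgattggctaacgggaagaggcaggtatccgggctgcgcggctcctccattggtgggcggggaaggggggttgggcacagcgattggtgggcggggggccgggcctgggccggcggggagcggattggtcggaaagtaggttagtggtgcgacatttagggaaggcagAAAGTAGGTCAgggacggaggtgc
Clock: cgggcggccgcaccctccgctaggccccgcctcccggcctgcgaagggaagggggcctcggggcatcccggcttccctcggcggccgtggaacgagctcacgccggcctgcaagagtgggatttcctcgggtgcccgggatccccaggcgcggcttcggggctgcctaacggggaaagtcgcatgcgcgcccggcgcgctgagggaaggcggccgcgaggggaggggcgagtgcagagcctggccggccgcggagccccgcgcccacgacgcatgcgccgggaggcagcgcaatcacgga
Per1: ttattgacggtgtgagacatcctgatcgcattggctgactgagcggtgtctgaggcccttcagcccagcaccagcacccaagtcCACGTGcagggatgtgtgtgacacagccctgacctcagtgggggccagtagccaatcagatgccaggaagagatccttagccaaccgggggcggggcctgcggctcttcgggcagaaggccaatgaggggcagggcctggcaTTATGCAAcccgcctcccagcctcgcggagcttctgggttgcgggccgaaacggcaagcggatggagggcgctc
Per3: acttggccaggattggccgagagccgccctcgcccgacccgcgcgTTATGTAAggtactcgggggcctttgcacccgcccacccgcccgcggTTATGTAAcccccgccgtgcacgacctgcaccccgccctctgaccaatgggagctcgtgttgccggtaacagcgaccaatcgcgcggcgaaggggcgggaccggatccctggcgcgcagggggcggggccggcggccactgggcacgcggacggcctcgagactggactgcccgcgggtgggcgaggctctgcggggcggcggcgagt
Cry1: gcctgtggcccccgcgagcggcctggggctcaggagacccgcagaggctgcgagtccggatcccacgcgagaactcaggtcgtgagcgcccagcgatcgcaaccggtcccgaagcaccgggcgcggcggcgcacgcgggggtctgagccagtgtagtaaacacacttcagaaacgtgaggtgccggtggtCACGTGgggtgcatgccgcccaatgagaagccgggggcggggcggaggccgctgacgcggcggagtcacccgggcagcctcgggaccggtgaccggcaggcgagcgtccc
The RefSeq table held 13 such windows for 9 of the 10 genes. 4 motifs were searched on both strands: the E-box CACGTG, the D-box TTATGNAA, the RORE, and the DR1, which is AGGTCA and AGGTCA with 1 base between. Cry1 held an E-box 60 bases before its start, and Per1 held one 166 bases before its start and a D-box 24 bases before it. Per3 held a D-box at 205 and at 158 bases before its start. The RORE stood 26 bases after the downstream Arntl start, inside the capitals of the Arntl line. Over all 32851 promoter windows the E-box was found in 7.15%, the D-box in 3.38%, the RORE in 0.384% and the DR1 in 0.0396%. No clock promoter window held the DR1, and none of the 4 motifs was found in the windows of Clock, Cry2, Nr1d1, Nr1d2 or Dbp. These matches describe letters in a short window and no binding was measured.

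Peak lists held from 44454 to 48929 peaks per H3K27ac library and from 61189 to 72151 per H3K4me1 library. Each value given here is a fold enrichment, the authors' ratio of the ChIP signal at a peak's summit to its local input background. A library with no overlapping peak is given as no call, which means under the authors' peak threshold and not a fold of 0. Reads per library are not given, so the depth behind a fold is unknown. The smallest peak in a list was 196 to 200 bases wide in 4 H3K4me1 libraries (both WT, Cpt2 KO replicate 2 and Ppara KO replicate 1) and 210 to 221 bases wide in the other 4, so these libraries stand apart by a processing property that crosses genotype. Numbers in the peak names put all Ppara-intact livers in 1 series and all Ppara-null livers in another, so the series and the Ppara state cannot be told apart. All 8 hepatocyte markers had an H3K27ac call in each of the 8 libraries, and none of 5 lymphocyte markers had one. A deletion need not remove the marks on a gene: at Ppara 1 of 26 and at Cpt2 1 of 5 H3K27ac intervals were called in all intact and no null livers. At Ppara 1 of the 26 had the opposite pattern, called in all null and no intact livers. For H3K4me1, 2 of 40 at Ppara and 0 of 7 at Cpt2 were called in all intact and no null livers. These marks thus check the labels only weakly.

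H3K27ac lay over the starts of the clock genes in the fasted liver. An H3K27ac interval held a RefSeq start of all 9 clock genes that have one in the table, against 34.8% of 27025 genes. At Arntl this rested on WT replicate 2, the only library with a peak that covered a start. H3K9ac covered 7 of the 9 (34.4% of all genes), with Arntl and Per3 left out, and H3K4me1 covered the start of Per1 alone (10.4% of all genes). Of the 61 H3K27ac clock intervals, 23 (37.7%) were called in all 8 libraries, where the share among all intervals was 27.8%, and 15 (24.6%, against 27.2%) in 1 library. For H3K4me1 the counts were 35 of 116 (30.2%, against 19.0%) and again 35 (30.2%, against 28.5%).

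Clock and Arntl encode the activators. The H3K27ac interval over the Clock start (chr5:76303637-76305543, 1907 bases) was enriched 22.0 and 36.0 fold over input in the WT livers, and 20.2 and 16.2 fold in those of the Cpt2 KO. The Ppara KO livers had 10.5 and 14.0 and the DKO livers 16.6 and 19.8. The WT livers were the highest and the Ppara KO livers the lowest, and the DKO values lay within the range of the Cpt2 KO values, so the 4 Ppara-null livers overlapped with the 4 Ppara-intact ones. The group means were 29.0 ± 9.88 (SD, n = 2) in WT, 18.2 ± 2.78 (SD, n = 2) in Cpt2 KO, 12.2 ± 2.49 (SD, n = 2) in Ppara KO and 18.2 ± 2.26 (SD, n = 2) in DKO livers. WT and Ppara KO livers thus lay apart, while Cpt2 KO and DKO livers overlapped. limma's test ran over all 18281 intervals called in every library. Averaged over both Cpt2 states, acetylation at the Clock start fell with Ppara loss by 0.64 on the log2 scale (SE 0.16, limma adjusted p = 0.0271). It was the only one of the 23 clock intervals tested that passed for Ppara, 1 lower (4.35%) and 0 higher, where 7.34% of all intervals tested passed in either direction and 4.15% were lower, so the share of clock intervals lower was close to that of all intervals. Since bulk liver was assayed, fewer cells with the mark and less mark per cell cannot be told apart.

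This call was narrow. Leaving out WT replicate 2, Cpt2 KO replicate 1 or 2, Ppara KO replicate 1, or DKO replicate 1 or 2 raised limma's adjusted p at the Clock start to 0.0806, 0.0861, 0.0689, 0.0981, 0.0703 and 0.0684, and dropping the centring of libraries or taking the smallest peak width as a covariate raised it to 0.0779 and 0.0797, while the difference stayed between -0.77 and -0.52 over 15 alternative settings. The other contrasts at the Clock start did not pass: the Cpt2 difference was -0.29 (SE 0.16, limma adjusted p = 0.226) and the interaction, which asks whether Cpt2 loss acts differently where Ppara is also lost (positive: a higher Cpt2 difference without Ppara), was 1.13 (SE 0.31, limma adjusted p = 0.142). The summit of the Clock peak lay 47 to 78 bases after the start at 76304792 in all 8 libraries, at the end of the promoter window printed for Clock.

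**Figure D1:**
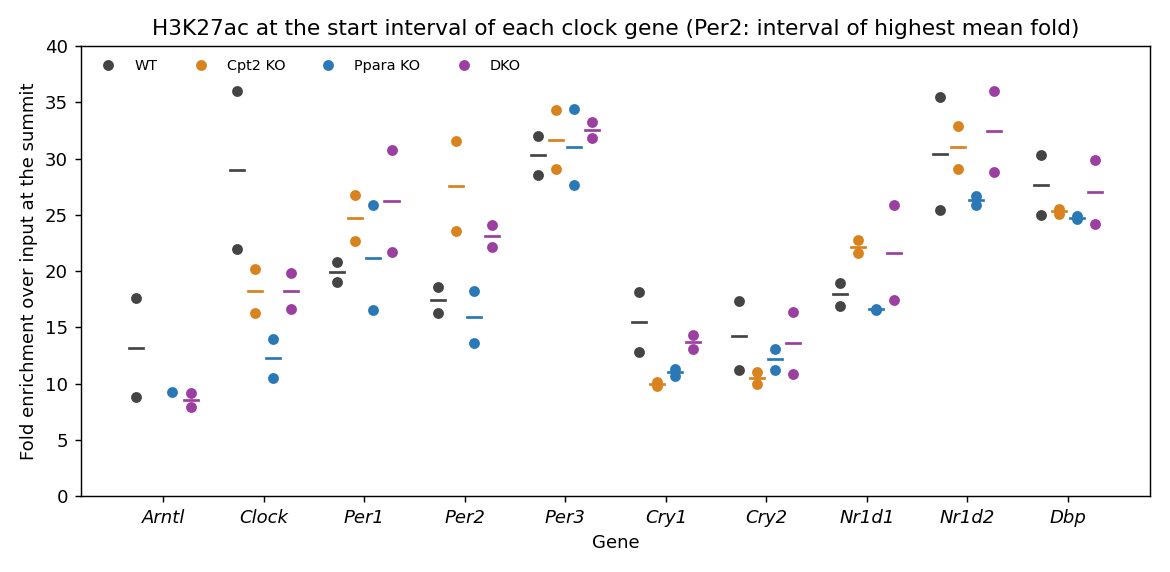
H3K27ac fold enrichment over input (vertical axis) at the start interval of each of 10 clock genes (horizontal axis), with 1 point per liver, coloured by genotype, and a bar at the mean where both livers had a call. At Clock the WT livers were at 22.0 and 36.0 and the Ppara KO livers at 10.5 and 14.0, while Per3 held 27.7 to 34.4 over all 8 livers.

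Arntl, the partner of Clock, had weaker acetylation at its start, split over intervals on either side of it. The downstream interval (chr7:113207471-113208449, 979 bases) was called with 8.82 and 17.6 in the WT livers, with no call in either Cpt2 KO liver. Ppara KO replicate 2 had 9.26 there, Ppara KO replicate 1 had no call, and the DKO livers had 7.95 and 9.14. The interval thus lacked a call in both livers with Cpt2 loss alone and carried one in both livers that lacked Ppara as well. Upstream of the start (chr7:113206470-113207186, 717 bases) WT replicate 1 had no call and WT replicate 2 had 5.21. The other folds of that upstream interval were 9.0 and 2.93 without Cpt2, 5.30 and 7.78 without Ppara and 9.88 and 8.92 without either. In peaks measured from the upstream of the 2 Arntl starts, summits lay 409 to 512 bases before it and 483 to 505 bases after it, with the RORE between them. With calls missing in 1 or more libraries, neither interval entered the test.

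H3K4me1 flanked the Arntl start on the same sides. Downstream (chr7:113207905-113209198) all 8 libraries had a call, with 6.00 and 11.9 in WT livers, 4.29 and 6.67 without Cpt2, 7.0 and 3.86 without Ppara and 4.43 and 3.43 without either. The Ppara difference there was -0.58 (SE 0.26) and did not pass (limma adjusted p = 0.337). Upstream, H3K4me1 was called in Cpt2 KO replicate 1 (5.94) and both DKO livers (6.27 and 7.18) and in no other library. H3K9ac was called on both sides of the Arntl start in the WT and in the Cpt2 KO liver, so the Cpt2 KO liver assayed for H3K9ac had a call downstream, where both Cpt2 KO livers had none for H3K27ac.

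**Figure D2:**
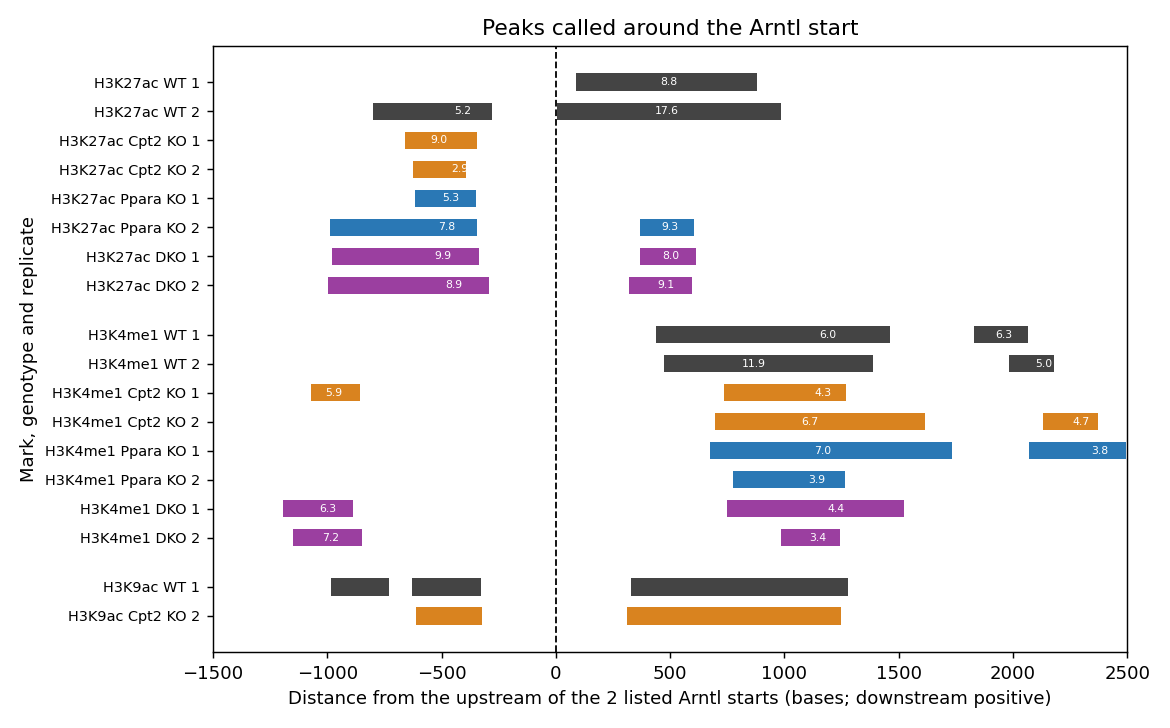
Peaks called around the Arntl start in each library of the 3 marks, plotted by distance in bases from the upstream of the 2 RefSeq starts (dashed line), with the fold enrichment written at the summit where the authors deposited one. H3K27ac peaks after the start were called in 5 of 8 libraries and in neither Cpt2 KO library.

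Within the Arntl gene body, an H3K27ac interval 53.3 kb after the start (chr7:113259594-113262033, 2440 bases) was called in all libraries. Its folds were 5.85 and 6.33 in WT livers, 15.5 and 13.7 without Cpt2, 6.24 and 7.69 without Ppara and 6.42 and 8.48 without either. The Cpt2 KO livers stood above the 6 other livers, among which the Ppara KO range overlapped those of WT and DKO. The interaction there was -1.25 (SE 0.35) and did not pass (limma adjusted p = 0.144), nor did the Ppara difference (-0.43, adjusted p = 0.163) or the Cpt2 difference (0.41, adjusted p = 0.139). Another Arntl interval, 21.0 kb before the start (chr7:113186322-113186645), was called in Cpt2 KO replicate 1 (8.49) and both DKO livers (7.0 and 8.98), by the numbers in the peak names the same 3 livers that had the upstream H3K4me1 call.

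The Per genes encode repressors of the loop and carried some of the highest acetylation. Per3 had the highest start interval by median (chr4:151043370-151045602), with 32.0 and 28.5 in WT livers, 29.1 and 34.3 without Cpt2, 27.7 and 34.4 without Ppara and 31.8 and 33.2 without either. All 4 genotypes overlapped, and the Ppara and Cpt2 differences were 0.00 and -0.20 (limma adjusted p = 0.989 and 0.319). Per1 (chr11:69095051-69100629) had 19.1 and 20.8 in WT livers, 26.8 and 22.7 without Cpt2, 25.9 and 16.5 without Ppara and 21.7 and 30.7 without either. Both WT livers lay under both Cpt2 KO and both DKO livers, the Ppara KO livers spanned the WT range, and neither contrast passed (0.03 and 0.05, limma adjusted p = 0.942 and 0.877). The highest Per1 peak lay 1438 to 3373 bases before the start whose promoter is printed, inside the RefSeq gene body.

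Per2 had the widest run of acetylation of the Per genes. An interval of 13713 bases within Per2 (chr1:91434025-91447737), wider than all but 0.155% of H3K27ac intervals, had 16.3 and 18.6 in WT livers, 31.6 and 23.6 without Cpt2, 13.6 and 18.2 without Ppara and 22.1 and 24.1 without either. All 4 Cpt2-null livers were above all 4 Cpt2-intact livers, yet the centred difference of 0.33 (SE 0.14) did not pass (limma adjusted p = 0.123). The tallest peak of this interval was not the same one in every liver: its summit lay between 91443068 and 91443108 in both WT livers and Ppara KO replicate 1, and between 91436229 and 91436906 in the other 5. Per2 had 12 H3K27ac intervals, 6 of them called in all libraries. The interval beyond its lower end (chr1:91412257-91414729), whose nearest gene is Hes6, had 8.93 and 12.5 in WT livers, 6.00 and 6.82 without Cpt2, 4.78 and 6.33 without Ppara and 5.25 and 6.58 without either. Both WT livers were above the 6 others, but the Cpt2 difference of -0.58 (SE 0.19, limma adjusted p = 0.0585) and the Ppara difference of -0.56 (SE 0.19, limma adjusted p = 0.0868) did not pass.

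The Cry genes, whose products repress together with the Per proteins, had lower median folds at their starts than Per1 and Per3. The Cry1 start interval (chr10:85184225-85186628) had 12.8 and 18.1 in WT livers, 9.79 and 10.1 without Cpt2, 10.7 and 11.3 without Ppara and 13.1 and 14.3 without either. Both single-deletion groups lay under both WT livers, and the DKO livers lay within the WT range. The Cry2 start interval (chr2:92430462-92435391) had 11.2 and 17.3 in WT livers, 11 and 10 without Cpt2, 11.2 and 13.1 without Ppara and 10.8 and 16.4 without either. The Cpt2 difference was -0.41 at Cry1 (SE 0.16) and -0.40 at Cry2 (SE 0.17), and neither passed (limma adjusted p = 0.109 and 0.139). All 3 Cry2 intervals tested had a negative Cpt2 difference, from -0.54 to -0.40, with 0.0776 as the lowest limma adjusted p.

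The REV-ERB genes and Dbp, whose transcripts peak in antiphase to Arntl in the daily cycle, had no start interval past the threshold. Nr1d1 (chr11:98774016-98778238) had 16.9 and 19.0 in WT livers, 22.7 and 21.6 without Cpt2, 16.7 and 16.6 without Ppara and 17.4 and 25.8 without either. Nr1d2 (chr14:18237358-18239645) had 25.4 and 35.4 in WT livers, 32.9 and 29.1 without Cpt2, 26.7 and 25.9 without Ppara and 28.8 and 36.0 without either. Dbp, an activator of output genes, had 25.0 and 30.3 in WT livers, 25.5 and 25.1 without Cpt2, 24.9 and 24.6 without Ppara and 24.2 and 29.9 without either. The Ppara KO livers were the lowest at Nr1d1, lay by a narrow margin under both WT and both Cpt2 KO livers at Dbp, and lay within the WT range at Nr1d2. Both Nr1d1 values without Cpt2 alone were above the WT and Ppara KO values, while the DKO range overlapped the WT range at all 3 genes. The Ppara differences were -0.12, -0.10 and -0.06 (limma adjusted p = 0.672, 0.666 and 0.793) and the Cpt2 differences 0.06, -0.10 and -0.27 (limma adjusted p = 0.793, 0.607 and 0.142). The Dbp interval (chr7:45703717-45718811) ran over 15095 bases, a width that 0.114% of H3K27ac intervals reach, and it overlaps Car11, Sphk2 and Rpl18 too. Its tallest peak lay inside the Dbp gene body, 1455 to 2154 bases after the start, in all 8 libraries.

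Ordered by the median over the libraries with a call, the start intervals ran from Per3 (31.9) through Nr1d2 (28.9), Dbp (25.1), Per1 (22.2), Per2 (20.4), Clock (18.2), Nr1d1 (18.2), Cry1 (12.0) and Cry2 (11.2) to Arntl (9.14, in 5 libraries). Every pair of neighbours in this order overlapped in its range over livers. The fold is a summit height over input and does not depend on gene length, but wide intervals offer more peaks to take the highest from, and for Per2 the interval of highest mean fold stands in for a start.

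Over the 23 H3K27ac clock intervals tested, the median Cpt2 difference was -0.12, the median size of a difference 0.33, and none passed (limma, lowest adjusted p = 0.0585), where 12.3% of all intervals tested passed. At an unadjusted p under 0.05 there were 12 (52.2%, against 30.1% of all intervals), 4 higher and 8 lower. Over all intervals the median size of a Cpt2 difference was 0.26. For Ppara the median was -0.10 and the median size 0.18, against 0.22 over all intervals, with 5 intervals (21.7%, against 23.1%) under an unadjusted 0.05. The interaction passed nowhere (limma, 5 or 21.7% under an unadjusted 0.05, against 15.2%, 0.00547% of all intervals passing). Without the centring of libraries the median Cpt2 difference over all intervals was 0.25, and 6 of the 23 clock intervals then passed, all higher, where 19.2% of all intervals were higher, so the count for Cpt2 loss is a count relative to each library's median peak.

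H3K27ac folds at endothelial, Kupffer cell and stellate markers, not centred here, moved with the Cpt2 contrast. Without centring the median Cpt2 difference over all H3K27ac intervals was itself 0.25. Of 5 endothelial markers all had a call in each library, of 5 Kupffer cell markers 1 to 5 and of 5 stellate markers 3 to 5. The summed H3K27ac fold of the endothelial markers was 98.7 to 110.2 in the 4 Cpt2-null livers and 61.6 to 81.7 in the 4 Cpt2-intact livers. For the Kupffer cell markers it was 21.4 to 37.7 against 5.96 to 14.3, for the stellate markers 43.9 to 57.6 against 21.0 to 25.8, and for the 8 hepatocyte markers 180.7 to 202.3 against 145.0 to 173.1. Krt19, Epcam, Krt7 and Spp1 of the 5 cholangiocyte markers had no H3K27ac call, and the fifth, Sox9, was highest in WT, with 12.5 and 19.7 in WT livers, no call in either Cpt2 KO liver, 5.81 and 7.25 without Ppara and 6.50 and 9.57 without either. In H3K4me1 the endothelial sums of the Cpt2 states overlapped, with 37.0 to 48.6 in Cpt2-null and 27.4 to 41.7 in Cpt2-intact livers. No Kupffer cell marker had an H3K4me1 call, and stellate calls were in both WT livers and Cpt2 KO replicate 1 alone. The part of these markers in the Cpt2 differences at clock genes was not tested. The smallest H3K27ac peak was 217 to 223 bases wide in the Cpt2-null and 198 to 210 in the Cpt2-intact libraries, so this width and the Cpt2 state cannot be told apart. For Ppara, the H3K27ac sums of the 2 states overlapped in all 5 of these lists.

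**Figure D3:**
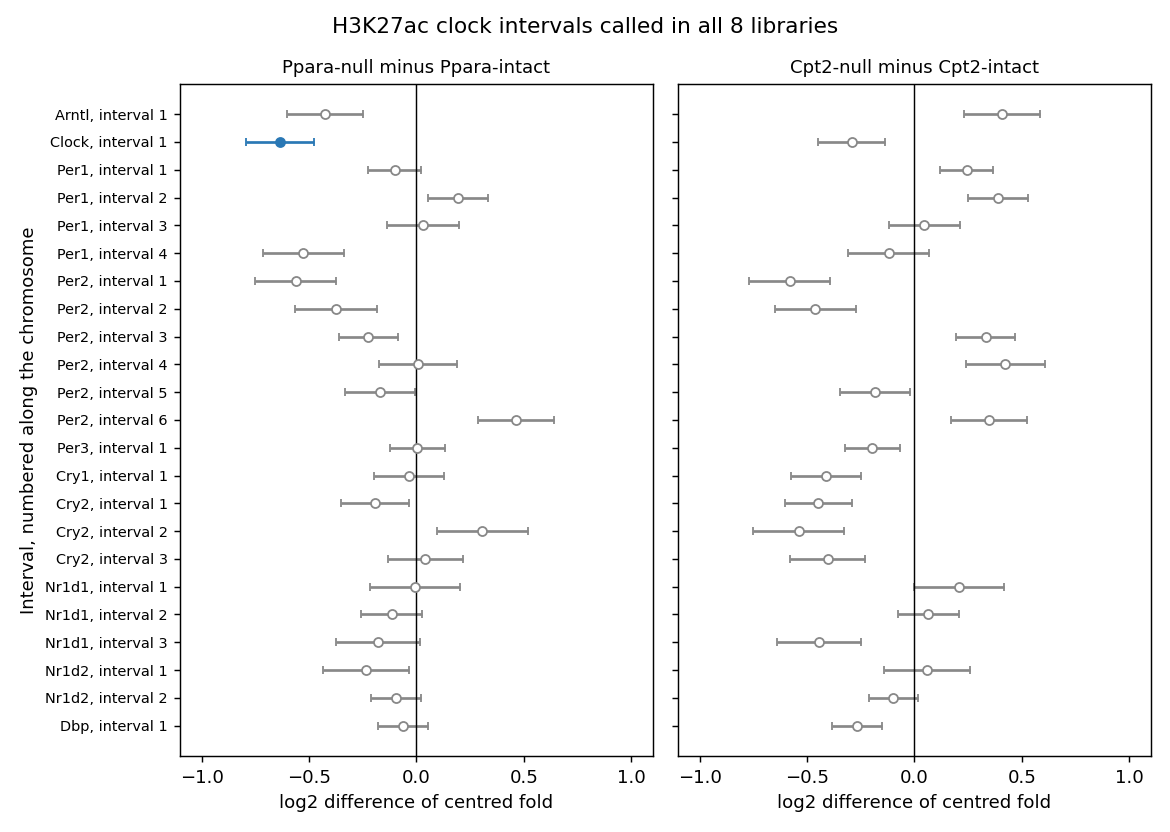
Difference of centred log2 fold (horizontal axis, with its standard error) for each of the 23 H3K27ac clock intervals called in all 8 libraries, for Ppara loss (left) and Cpt2 loss (right); a filled point passed at an adjusted p under 0.05. The Clock start at -0.64 in the Ppara panel is the only filled point.

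Summed over the 10 genes, H3K27ac clock intervals were called more often in WT livers, though not at each gene. Of the 61 H3K27ac intervals, WT replicates 1 and 2 had a call in 40 (65.6%) and 49 (80.3%), and the 6 other libraries in 30 to 33 (49.2% to 54.1%), without overlap. Over all 65776 intervals the WT libraries were called in 52.2% and 51.5%, within the 48.8% to 59.0% of the other 6. By gene, both WT libraries were above all others at Per2, with 11 and 9 calls against 6 to 8. The same held at Nr1d1 (5 and 8 against 3 to 4) and Nr1d2 (5 and 6 against 2 to 3). It held at Dbp too (2 and 3 against 1). At Cry2 both WT libraries were below all others (3 and 3 against 4 to 5). At Arntl, Clock, Per1, Per3 and Cry1 the WT counts overlapped those of the other libraries. Neighbouring intervals of 1 gene were counted separately, and these counts were not tested. In all, 7 of the 61 clock intervals (11.5%) were called in both WT livers and in no other library, where 3.29% of all intervals were. They were counted for 5 of the 10 genes. Per2 had a WT-only interval at chr1:91423511-91423965 with 6.59 and 5.75 and another at chr1:91433221-91433706 with 4.94 and 3.86. Cry1 had one 4.38 kb before its start (3.50 and 4.33), and Nr1d2 one 6.54 kb after its start (5.0 and 6.00). At Nr1d1 the pair were 5.29 and 6.14 at 4.82 kb after the start, and 6.89 and 5.14 at 6.88 kb after it, where Thra is the nearest gene. Next to Dbp, at chr7:45702876-45703552 and nearest to Car11, the folds were 4.83 and 6.41. All 14 of these folds were under 7, where the median over all peaks of the 2 WT lists was 6.69 and 7.0, and 4 of the 7 intervals kept the pattern when peaks needed a −log10 q of at least 10 (2.39% of all intervals had it then). Leaving out WT replicate 1, the count was 13 (21.3%, against 8.64%).

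Other patterns by genotype were few. All 4 Ppara-intact livers and no Ppara-null liver had a call at 2 of the 61 intervals (3.28%, against 0.725% of all intervals). One lay beyond the far end of Per1 (chr11:69114121-69115136, nearest to Hes7), with 7.33 and 7.59 in WT and 16.2 and 13.7 in Cpt2 KO livers. Both Cpt2 KO livers were above both WT livers there. The second lay 6.32 kb before the Per3 start (nearest to Gm38529), with 5.33 and 3.83 in WT and 5.83 and 3.62 in Cpt2 KO livers. Upstream of Cry2 (chr2:92437322-92438156) the WT livers had no call and the 6 others had 6.36, 6.61, 6.32, 7.37, 8.97 and 15.5, the 1 interval (background 2.59%) called in all deletion livers and neither WT liver. Past the upper end of Per2 (chr1:91465708-91466086) the DKO livers alone had calls, 8.49 and 6.69 (1 interval, background 2.26%). The remaining named intervals were beside Clock (chr5:76305742-76306327), with 6.31 and 5.0 in both Cpt2 KO livers, 4.83 in replicate 2 of WT and 5.35 in replicate 1 of Ppara KO, and in Nr1d2 (chr14:18236123-18236511), with 5.96 and 4.80 in WT and 6.20 in Ppara KO replicate 1.

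**Figure D4:**
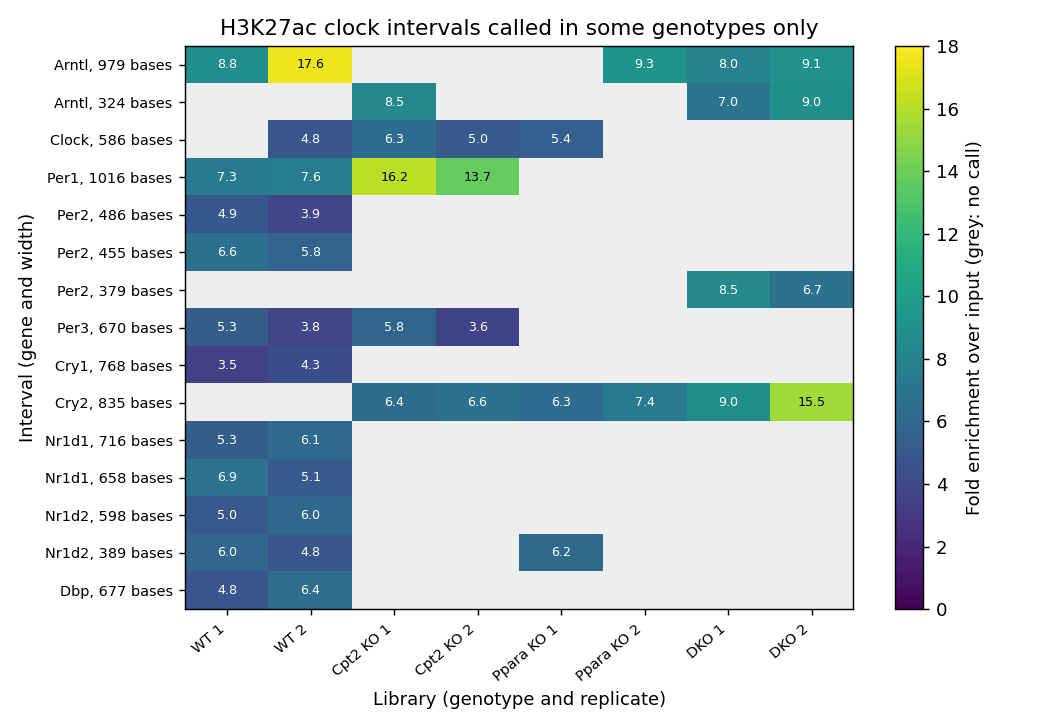
H3K27ac clock intervals that were called in both livers of 1 genotype and in neither liver of another (rows, by gene and width, at most 3 per gene), against the 8 libraries (columns); colour and number give the fold enrichment over input, and grey means no call. 7 rows are filled in the WT columns alone, and the Per1 and the Per3 row in WT and Cpt2 KO.

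H3K4me1 at the clock genes did not change past the threshold. None of the 35 intervals tested passed in limma's test for Ppara (0.128% of all 19526 intervals tested passed; 3 clock intervals or 8.57% under an unadjusted 0.05, against 13.9%; lowest adjusted p = 0.222), for Cpt2 (0.0% passed; 3 or 8.57% under an unadjusted 0.05, against 9.81%; lowest adjusted p = 0.474) or for the interaction (0.0% passed; 1 or 2.86% under an unadjusted 0.05, against 2.9%). The broad Per2 interval (chr1:91434904-91446154, 11251 bases) had 11.8 and 14.1 in WT livers, 16.2 and 14.2 without Cpt2, 12.1 and 13.8 without Ppara and 13.9 and 14.2 without either, with all genotypes close to each other. At the Per1 start (chr11:69099617-69101420) the folds were lower, 3.40 and 5.12 in WT livers, 6.61 and 4.78 without Cpt2, 4.25 and 5.08 without Ppara and 3.63 and 6.55 without either, and the genotypes overlapped. The Ppara difference was -0.06 at Per2 and -0.03 at Per1.

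H3K4me1 calls at the clock genes differed in number between the libraries of narrow and of wide smallest peaks. In the 4 libraries of narrow smallest peaks 62, 73, 75 and 67 of the 116 clock intervals were called (53.4% to 64.7%), and 54 to 57 in the other 4 (46.6% to 49.1%). Over all 103014 intervals the shares were 47.2% to 51.0% and 44.1% to 50.7%, which overlap. Of the 116, 47 (40.5%, against 31.9% of all intervals) had no call in any library of 210 bases or more, and 15 (12.9%, against 23.1%) had none in any library of 200 bases or less. Among those 47, 5 intervals (4.31% of the 116, against 3.49%) were called in exactly the 4 libraries of 200 bases or less. Arntl, with 28 intervals the gene with the most, had 3 of these: folds of 5.90, 7.44, 5.56 and 5.37 at chr7:113263869-113265030, of 4.67, 5.62, 6.33 and 5.40 at chr7:113255324-113256106, and of 6.27, 5.02, 4.71 and 3.75 at chr7:113209295-113209959, for WT replicates 1 and 2, Cpt2 KO replicate 2 and Ppara KO replicate 1. Per2 (chr1:91447694-91448294) had 4.16, 3.40, 4.36 and 3.75 and Nr1d1 (chr11:98779256-98779840) 6.05, 6.50, 4.18 and 6.84 in the same 4 libraries. The mirror image, calls in exactly the 4 other libraries (Cpt2 KO replicate 1, Ppara KO replicate 2 and both DKO), was seen in Per3 at 1.11 kb after and 0.639 kb before the start (4.50, 3.20, 3.00 and 4.93, then 6.72, 5.53, 6.29 and 5.14), in Cry1 (4.0, 5.14, 2.90 and 3.90), in Dbp (5.01, 4.21, 3.69 and 7.88) and 3.65 kb before the Cry2 start (5.74, 6.35, 6.53 and 6.86). The share of all intervals with this mirror pattern was not counted, so these intervals are listed without a background. The part of peak width in these call patterns was not tested.

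Calls that followed genotype in H3K4me1 were 2. Before the Cry2 start (chr2:92434293-92435308) both WT livers had no call and the 6 deletion livers had 5.30, 4.86, 4.43, 4.55, 4.25 and 6.62 (1 interval, 0.862%, against a background of 0.85%). This lies 2.94 kb, between midpoints, from the Cry2 interval with the same pattern in H3K27ac. Beyond Per1 (chr11:69112090-69112439) the Cpt2 KO livers alone had calls, 4.60 and 6.49 (1 interval, background 0.621%). The other H3K4me1 intervals with both livers of 1 genotype called and neither of another mixed genotypes. Near Arntl (chr7:113209997-113212264) calls were 6.80 and 10.7 in the WT pair, 6.61 in replicate 2 of Cpt2 KO and 6.68 and 5.06 in Ppara KO livers. In Clock (chr5:76288201-76288800) they were 11.5 and 8.46 in both WT livers and 6.68 in Cpt2 KO replicate 2, and beside Clock (chr5:76305719-76306302) they were 4.75 in Cpt2 KO replicate 1, 4.0 and 6.60 in both Ppara KO livers and 4.0 and 3.88 in both DKO livers. Below Per2 (chr1:91415046-91415622) they were 5.69 and 4.63 in both WT livers and 5.0 in Cpt2 KO replicate 2, and upstream of Per1 (chr11:69088074-69088378) 6.88 in Ppara KO replicate 2 and 7.07 and 6.29 in DKO livers. At Nr1d1, 5.64 kb before the start, calls were 6.34 and 6.62 in the WT pair, 6.65 in replicate 2 of Cpt2 KO and 9.33 and 4.0 in Ppara KO livers, and 9.74 kb after the start, past the gene, they were 5.93 and 6.52 in both WT livers and 8.12 in Cpt2 KO replicate 2. Next to Dbp (chr7:45703132-45703458) they were 4.17 and 4.27 in WT and 4.12 in Ppara KO replicate 1.

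H3K9ac was called at 71 clock intervals, with 1 liver a genotype, no fold values and so no test. Of these, 46 (64.8%, against 55.2% of all intervals) were called in both livers, 14 (19.7%, against 20.8%) in the WT liver alone and 11 (15.5%, against 23.9%) in the Cpt2 KO liver alone. Per2 and Per1 held 23 and 16 of them and leaned in opposite directions. Per2 had 14 intervals in both livers, 9 in the WT liver alone and 0 in the Cpt2 KO liver alone. Per1 had 8 in both, 1 in the WT liver alone and 7 in the Cpt2 KO liver alone. Among those 7, the intervals that start at 69086366 and 69087116 were nearest to Vamp2. Those that start at 69115710 and 69117055 were nearest to Hes7, as was the 1 in the WT liver alone. Cry2 had 2 in the WT liver alone and 4 in both, Nr1d1 had 6 of 7 in both, and both Cry1 intervals were shared. These are counts in 2 libraries and carry no replicate check.

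**Figure D5:**
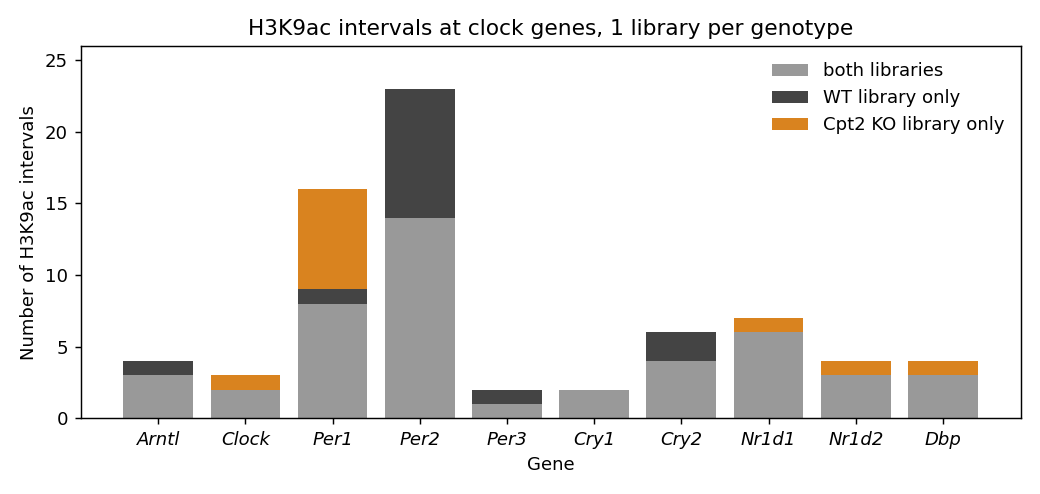
Number of H3K9ac intervals at each clock gene (bars stacked from 0) that were called in both libraries, in the WT library alone or in the Cpt2 KO library alone. Per2 had 9 in the WT library alone and none in the Cpt2 KO library alone, and Per1 had 1 and 7.

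Around the core loop, 23 further clock and output genes gave 59 H3K27ac intervals called in all libraries. In limma's test 2 of the 59 were higher and 5 lower with Ppara loss (3.19% and 4.15% of all intervals tested), 3 higher and 5 lower with Cpt2 loss (4.9% and 7.38%), and none passed for the interaction (10 under an unadjusted 0.05). Of these 15 calls, 5 held when any 1 library was left out, and all 8 calls for Cpt2 loss ended with the smallest peak width as a covariate. With that covariate 0 of all 18281 intervals passed for Cpt2 loss. The width and the Cpt2 state cannot be told apart, so the end of these 8 calls is not particular to these genes. Rora encodes an activator of Arntl at the RORE that the REV-ERB proteins occupy. A Rora interval (chr9:68881289-68885324) had 6.06 and 9.32 in WT livers, 24.0 and 20.0 without Cpt2, 12.0 and 16.1 without Ppara and 13.6 and 17.8 without either. Over both Ppara states it rose by 0.59 with Cpt2 loss (SE 0.17, limma adjusted p = 0.0371), with WT and Cpt2 KO livers apart and Ppara KO and DKO livers overlapping. Another (chr9:69287121-69291450) had 33.2 and 36.2 in WT livers, 11.7 and 18.8 without Cpt2, 19.3 and 21.2 without Ppara and 19.7 and 21.5 without either, and fell by 0.87 over both states (SE 0.17, limma adjusted p = 0.0089), again with Ppara KO and DKO livers overlapping. The interaction did not pass at either (-1.47 and 1.17, limma adjusted p = 0.107 and 0.149). The first of these Cpt2 calls ended without any 1 library except WT replicate 2 (limma adjusted p up to 0.128).

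The D-box factors differed among themselves. Nfil3, a repressor at D-boxes, rose with Ppara loss (chr13:52981201-52983204; 0.86, SE 0.22, limma adjusted p = 0.0298), with 13.1 and 35.5 in WT livers, 11.4 and 14.1 without Cpt2, 22.6 and 29.5 without Ppara and 34.3 and 38.8 without either. WT replicate 2 lay within the Ppara-null range, and the call ended without Cpt2 KO replicate 1 or any 1 Ppara-null library (limma adjusted p up to 0.1005). In Hlf, an activator related to Dbp, 1 interval fell with Ppara loss (-0.80, limma adjusted p = 0.0278) and another with Cpt2 loss (-0.79, limma adjusted p = 0.0195). None of the 3 intervals tested at Tef, the other activator of that family, passed. With Cpt2 loss, intervals at Timeless (1.08, limma adjusted p = 0.0151) and Por (0.69, limma adjusted p = 0.0163), the electron donor of microsomal cytochromes P450, rose, and one at Wee1, a cell-cycle kinase gene under clock control, fell (-0.49, limma adjusted p = 0.048). The Hlf, Por and Wee1 calls each ended without Cpt2 KO replicate 1, Ppara KO replicate 2 or DKO replicate 1 (limma adjusted p up to 0.185), the Wee1 call also without either WT library, Cpt2 KO replicate 2 or DKO replicate 2, and the Hlf call for Ppara loss also without replicate 2 of WT, replicate 1 of Ppara KO or replicate 2 of DKO. The Timeless call held without each of the 8 libraries. The Ppara gene itself, on the list as a clock output and also a target of the deletion, accounted for 1 of the 2 intervals higher and 4 of the 5 lower with Ppara loss. It also accounted for 2 of the 5 lower with Cpt2 loss. Of the 4 lower with Ppara loss, the interval at chr15:85810060-85812081 lay outside the gene and was nearest to Cdpf1. In H3K4me1, 1 of 94 intervals of these genes passed, at Csnk1e, a kinase gene whose product marks Per proteins for turnover: it rose with Ppara loss by 1.45 (SE 0.20, limma adjusted p = 0.0152), with 4.02 to 6.26 in the Ppara-intact and 10.6 to 19.3 in the Ppara-null livers (0.0461% of all H3K4me1 intervals tested were higher). That call ended without either WT or either DKO library (limma adjusted p up to 0.247), with missing calls filled in (0.0691) and with the smallest peak width as a covariate (0.162).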

How the data were processed

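Chromatin immunoprecipitation followed by sequencing was done on flash-frozen liver. Per the submitters' processing notes, BWA, MACS2 2.1.0 and mm10 were used. The authors deposited a narrow peak list for each of the 16 H3K27ac and H3K4me1 libraries, with a fold enrichment (a linear ratio over input) and a −log10 p and −log10 q value per peak, and consensus intervals per mark with positions only, also for H3K9ac. In 1 H3K27ac library (Ppara KO replicate 2) the peaks are named with a different build word; its positions were taken as mm10. The authors' rule for merging intervals, their duplicate handling and their scaling are not given in the sources used here. The 2 pooled inputs were not analysed here.

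An interval's value in a library was the highest fold among the peaks overlapping it by at least 1 base. Intervals called in all 8 libraries entered limma 3.58.1 (R 4.3.3; lmFit and eBayes with trend) as log2 folds centred on each library's median, in 1 fit of 4 genotype means per mark; p-values were adjusted by Benjamini-Hochberg over all intervals tested, two-sided, and the threshold was 0.05. The fit was tested on simulated data. With 2 livers a genotype, the spread behind each p-value is only in part that between the livers at that interval. limma moderates it towards a trend over all intervals tested, so it draws on other intervals too. Genes, bodies and promoters came from RefSeq tables of GRCm38.p6, matched by symbol, without exons. Values in every library are printed for the start interval of each gene (Per2 has no entry in the promoter table, so the interval of highest mean fold was taken), for each interval past the threshold, and for at most the 3 widest per gene that were called in both livers of 1 genotype and neither of another. Other intervals named beside these were chosen after their values were seen. The members, the list of 23 further genes and the marker lists were chosen with earlier results of these data known; 1 gene of that list is not reported here and was left out of its counts. Marker sums add, for each gene, the highest fold of an interval overlapping its body.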

Additional observations from a re-analysis of the deposited data

How the results depend on the processing

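The count of H3K27ac clock intervals past the threshold for Ppara loss, 1, became 0 without centring and 0 with the smallest peak width as a covariate, ranged from 0 to 1 when each library was left out, and was 10 of 46 (2 higher, 8 lower) when intervals called in at least 2 libraries were tested with missing calls filled in at the lowest fold of the list (20.6% of all intervals passing). Leaving out WT replicate 1 or Ppara KO replicate 2 kept the 1 call at the Clock start, and leaving out any of the other 6 libraries ended it. Of all intervals tested, 6.01% passed for Ppara loss without centring and 3.9% with the smallest peak width as a covariate. For Cpt2 loss the count of 0 became 6 without centring (6 higher, where 19.2% of all intervals were higher). It became 14 with missing calls filled in (2 higher, 12 lower, 24.2% of all passing). For the interaction it became 3 with missing calls filled in (7.84% of all), among them the Arntl interval 53.3 kb after its start (-1.25, limma adjusted p = 0.0474). For H3K4me1 and Ppara loss, leaving out each library gave 0 to 1, with 1 interval, higher, without Cpt2 KO replicate 1 (4.98% of all passing). Single intervals were followed over the settings only in 2 cases. These were H3K27ac clock differences of at least 0.5 in size (1 for the interaction) and calls past the threshold. Among these combinations of an interval and a setting, none turned its direction (250 kept their side of the threshold, 91 lost it and 2 gained it). Smaller differences were not followed, so whether they turned is not reported. Requiring an overlap of 50% changed no value.

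With a −log10 q of at least 10, a setting chosen after seeing the data, the WT-only count of 7 became 4 (2.39% of all intervals) and the count for Ppara-intact livers went from 2 to 1 (0.628%); leaving out each library gave 7 to 13 (3.36% to 8.64% of all intervals) and 2 to 2 (0.809% to 1.11%).

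With the replicate number as a block, the H3K27ac count for Cpt2 loss became 1 (13.9% of all intervals passing), the Per2 interval nearest to Hes6 (-0.58, limma adjusted p = 0.0472). No other count over the 10 clock genes changed. Among the further genes the H3K4me1 call at Csnk1e (limma adjusted p = 0.0537) and 1 H3K27ac call at Ppara for Ppara loss (0.0508) ended. No pairing of same-numbered livers was shown. Between genotypes, correlations of the difference of replicate 1 and replicate 2 ran from -0.065 to 0.172 for H3K27ac and from -0.489 to 0.101 for H3K4me1. The -0.489 was for Cpt2 KO and Ppara KO, whose replicates were in opposite order of smallest peak width, so these correlations cannot settle a pairing. Depth in reads is unknown, so no bound can be set on an interval without a call.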

Other observations

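The 3 marks overlapped at the clock genes. Of the 61 H3K27ac clock intervals, 55 (90.2%) overlapped an H3K4me1 interval and 42 (68.9%) an H3K9ac interval, where the shares over all H3K27ac intervals were 75.1% and 39.6%. Of the 116 H3K4me1 clock intervals, 62 (53.4%, against 51.8% over all) overlapped H3K27ac and 57 (49.1%, against 31.9%) H3K9ac. Of the 71 H3K9ac clock intervals, 54 (76.1%) overlapped H3K27ac and 54 (76.1%) H3K4me1, against 73.4% and 80.0%.

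The intervals whose H3K27ac moved most like a clock start over the 8 libraries were those nearest to Pnpla6, Med13 and Larp1 for Dbp (Pearson r of centred log2 fold 0.99, 0.98 and 0.97) and those nearest to Nat8f2, Nr1h3 and Dolk for Nr1d1 (0.94, 0.94 and 0.92). The centred log2 folds of Dbp and Nr1d1 spanned 0.44 and 0.37 over the 8 libraries, so these likenesses rest on small movements. They were the highest of all intervals tested and describe 8 libraries that share their input.

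Not every interval counted for a clock gene was nearest to it. For H3K27ac another protein-coding gene was nearest to the midpoint of 15 of the 61 intervals, among them 6 of 8 at Per1 (Vamp2 or Hes7) and all 3 at Dbp (Car11, Sphk2 or Rpl18). For H3K4me1 the count was 29 of 116, with 8 of 9 at Dbp and 10 of 19 at Per1.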
